A study of Rattus norvegicus with 30 samples.

Results

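Chaperones and the genes of the endoplasmic reticulum (ER) secretory pathway were followed in rat bone marrow mesenchymal stem cells (BMSCs) during the first 3 days of differentiation. Members were chosen by gene name: the heat shock protein families Hspa, Hspb, Hspd and Hsp90, the J-domain proteins (Dnaj), the chaperonin subunits (Cct), protein disulfide isomerases (Pdia), and the Sec, Ssr, Kdelr, Creld and Surf4 genes of protein translocation and export. 11 further names of chaperones and unfolded protein response genes were added, of which 4 (Calr, Atf4, Atf6 and Sel1l) were listed and 7 (Canx, Manf, Ddit3, Xbp1, Hyou1, Ero1a and Herpud1) were not listed. The rule found 76 of the 9999 gene names in the files, and 52 of them were measured well enough to test among 4363 tested genes. No measured value entered the rule.

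The cells came from the bone marrow of 3 female Sprague Dawley rats aged 3 weeks and were seeded for the experiment as BMSCs at passage 2. Each RNA sample combined 3 cultures, and which rat each came from is not given in the sources used here. Undifferentiated cells at 0 h (CON) were compared with cells kept for 3 h, 12 h or 3 d (72 h) in commercial osteogenic (OS), adipogenic (AD) or chondrogenic (CH) medium. Each of the 10 groups held 3 samples, and all lineages share the same 3 samples of 0 h, so the 9 comparisons with 0 h are not independent of one another. The design has no cells kept in plain medium at 3 h, 12 h or 72 h, so time in culture and induction cannot be told apart. Values are CPM, the reads of a gene per 1000000 reads of its library, from bulk RNA-seq, in which a change in the cells present and a change in RNA per cell cannot be told apart.

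Most secreted and membrane proteins enter the ER through the Sec61 channel, lose their signal peptide to signal peptidase, and fold with the help of the HSP70 chaperone BiP (Hspa5), its J-domain partners and the disulfide isomerases. Folded cargo leaves in vesicles with a COPII coat, escaped chaperones are returned by the KDEL receptors, and the unfolded protein response raises ER chaperones when folding falls behind. In the cytosol, HSP70 and the ring-shaped chaperonin TRiC fold new proteins, TRiC being best known for actin and tubulin. Cells that make bone or cartilage matrix secrete large amounts of collagen and proteoglycan and depend on the COPII coat to do so.

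The promoters of 4 members are shown because these genes were called below, in the ER chaperone, COPII and TRiC groups, and because their sequences hold an exact copy of a motif known from ER or general stress responses. Each is the 250 bases before the start site used in the RefSeq promoter table for the rat build GRCr8, written along the gene's own strand, with the motif in capitals. For Hspa5 (chr3:38452766-38453015, plus strand) and Dnajc3 (chr15:102432417-102432666, plus strand) the capitals mark the ER stress response element (ERSE). For Sec23a (chr6:82440905-82441154, minus strand) they mark the unfolded protein response element (UPRE), and for Cct4 (chr14:101192807-101193056, plus strand) a cyclic AMP response element (CRE), the site of the CREB and ATF family. For Hspa5, Dnajc3 and Cct4 this start site is the outermost start of the annotated gene, while for Sec23a it lies 1690 bases inside the gene.
Hspa5: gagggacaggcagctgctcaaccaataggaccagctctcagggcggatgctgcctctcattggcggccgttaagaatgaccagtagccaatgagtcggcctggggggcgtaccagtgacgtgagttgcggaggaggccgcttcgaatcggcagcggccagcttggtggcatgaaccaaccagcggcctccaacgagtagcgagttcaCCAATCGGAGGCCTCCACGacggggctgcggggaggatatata
Dnajc3: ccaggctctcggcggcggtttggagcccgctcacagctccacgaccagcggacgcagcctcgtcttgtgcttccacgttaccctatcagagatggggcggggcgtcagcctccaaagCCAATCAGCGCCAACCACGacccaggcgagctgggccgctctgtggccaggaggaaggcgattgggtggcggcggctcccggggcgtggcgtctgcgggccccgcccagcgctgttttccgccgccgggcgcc
Sec23a: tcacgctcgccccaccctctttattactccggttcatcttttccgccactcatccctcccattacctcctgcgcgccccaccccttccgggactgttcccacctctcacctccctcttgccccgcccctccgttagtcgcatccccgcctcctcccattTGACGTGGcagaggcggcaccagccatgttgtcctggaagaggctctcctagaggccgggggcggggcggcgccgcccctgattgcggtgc
Cct4: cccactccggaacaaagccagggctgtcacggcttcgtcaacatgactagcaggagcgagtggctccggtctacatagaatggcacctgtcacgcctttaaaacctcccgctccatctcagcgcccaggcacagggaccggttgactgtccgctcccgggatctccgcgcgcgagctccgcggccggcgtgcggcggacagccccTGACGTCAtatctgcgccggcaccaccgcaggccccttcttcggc

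RefSeq promoters of 300 bases (250 before and 50 after the start site) were found for 60 of the 76 members, and in 27 of these the start site lay inside the annotated gene rather than at its outermost start. The ERSE (CCAAT and CCACG with 9 bases between them, on either strand, as for all motifs here) was in the promoters of 5 of these 60 members, Hspa5, Dnajc3, Creld2, Calr and Hsp90b1, and in 0.066% of all 33469 rat promoters. It lay 43 to 25 bases before the start site in Hspa5 and 133 to 115 bases before it in Dnajc3. The UPRE (TGACGTGG) was in 3 of the 60, Sec23a, Dnajc10 and Dnajb3, and in 0.59% of all promoters. The CRE (TGACGTCA) was in 4, Cct4, Dnajc27, Dnajc30 and Hsp90ab1, and in 1.8% of all promoters. A heat shock element (GAA, TTC and GAA, each 2 bases apart) was in 3 (Cct4, Dnaja1 and Hspd1, against 0.8% of all promoters), and TGATGNAA, a short form of the element bound by ATF4 with C/EBP proteins, was in 3 (Hspa9, Hspa14 and Hspb9, against 4%). A second form of the ERSE (ATTGG and CCACG with 1 base between them) was in 0 of the 60 and in 0.051% of all promoters. No copy overlapped a copy of another motif. A match describes the sequence only and does not show that a factor binds there.

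The 30 libraries held 3899609 to 9046719 reads (median 6579543), of which 38.9% to 71.4% fell in the genes listed. A count of 3 reads, used as the limit of detection, was 0.332 to 0.769 CPM, which covers counting error only. Several genes that every cell uses were listed near 0, such as Actb with 0 to 39 reads, Vim with at most 10 reads and P4hb with at most 2 reads, while Rplp0 ranged from 2075 to 7542 CPM, so a low listed value was not read as absence of a transcript. Of 6 listed stromal markers, Thy1 (387 to 8280 CPM) and Cd44 (258 to 2014 CPM) were present in all groups, while Eng, Pdgfra, Pdgfrb and Vim reached at most 4, 12, 16 and 10 reads. The summed stromal markers were 8316 to 8911 CPM at 0 h and 646 to 801 CPM in AD at 72 h. The haematopoietic markers listed reached at most 13 reads. Of 5 listed osteoblast markers, Sp7, Alpl, Bglap and Spp1 reached at most 9 reads in any sample, so their sum is in effect that of 1 gene, Ibsp (bone sialoprotein). The sum was 202 to 320 CPM in CH at 72 h and 2.86 to 4.84 CPM in OS at 72 h, beside 2.58 to 2.87 CPM at 0 h, so this gene did not mark the osteogenic samples at 72 h. The chondrocyte marker sum, nearly all Sox9, was 46.8 to 50.8 CPM at 0 h and 1171 to 1515 CPM in CH at 72 h, with Acan, Col2a1 and Matn3 at no more than 3 reads. The adipocyte marker sum, nearly all Lpl (lipoprotein lipase), was 664 to 778 CPM at 0 h, 1163 to 3221 CPM in AD at 72 h, 1041 to 1146 CPM in OS at 72 h and 13.7 to 15.1 CPM in CH at 72 h. Of the plasma cell markers, Jchain and Mzb1 reached at most 4 and 3 reads, while Sdc1 carried the sum, at 152 to 160 CPM at 0 h and 478 to 1133 CPM at 3 h and 12 h in all lineages, the times at which most members that rose did so. Its part in those rises was not tested. The endothelial markers reached at most 37 reads. 3 libraries stood apart in several members: AD 12 h sample 1, AD 72 h sample 3 and OS 3 h sample 3. The adipocyte sum was lowest of its group in the first of these (254 CPM, beside 1028 and 1094 CPM) and highest in the second (3221 CPM, beside 1163 and 1389 CPM). Where leaving out 1 of them changed a call against 0 h, or lost a call in the other comparisons, the value without it is given below. Members that gained a call in the other comparisons are not named.

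A member was taken to have risen or fallen where its log2 fold change was at least 1 in size with an adjusted p under 0.05 (limma on log2(CPM + 1), adjusted over all 4363 tested genes). Against 0 h, 23 members (44.2% of the 52 tested) passed in at least 1 of the 9 comparisons, beside 53.2% of all tested genes. In OS 9 of the 52 tested members rose and 1 fell at 3 h, where 18.4% of all tested genes were called. At 12 h 10 rose and 2 fell (background 21.8%), and at 72 h 1 rose and 1 fell (background 12.5%). In AD 4 rose and 1 fell at 3 h (background 18.8%), 2 rose at 12 h (background 13.7%), and 1 rose and 5 fell at 72 h (background 15.3%). Leaving out 1 sample gave 6 to 9 calls in AD at 3 h and 1 to 5 at 12 h. In CH 5 rose and 1 fell at 3 h (background 18.0%), 12 rose and 0 fell at 12 h (background 14.4%, or 9.44% for higher calls alone), and 3 rose at 72 h (background 18.0%). In this fit the share of members called was 23.1% in CH at 12 h, above the background. It was 19.2% and 23.1% in OS at 3 h and 12 h, near the background, and between 3.85% and 11.5% in the other 6 comparisons, below it. The excess in CH at 12 h was not kept with edgeR, as given below. With the adjusted p alone and no minimum fold, 29, 27 and 7 members passed in OS at 3 h, 12 h and 72 h (background 40.2%, 44.7% and 28.3%). In AD these counts were 28, 21 and 27 (background 43.1%, 34.8% and 35.6%) and in CH 28, 24 and 20 (background 41.3%, 35.7% and 38.1%). As shares of the 52 members these were 55.8%, 51.9% and 13.5% in OS, 53.8%, 40.4% and 51.9% in AD and 53.8%, 46.2% and 38.5% in CH. All but OS at 72 h lay above the background, in CH at 72 h by little.

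The direction of these counts depended on the scaling at the early times. Scaling by median ratios moved the fold changes, by their median over all tested genes, by -0.18 (OS 3 h), -0.25 (OS 12 h), -0.19 (AD 3 h and AD 12 h), -0.26 (CH 3 h), -0.18 (CH 12 h), 0.17 (AD 72 h) and -0.12 (OS 72 h) on the log2 scale. In OS at 3 h the 9 higher and 1 lower calls became 1 and 2 with quantile normalization, and 5 and 2 both with median ratios and with edgeR. In AD at 3 h the 4 higher and 1 lower became 0 and 2, 0 and 1, and 0 and 2 in the same order. In AD at 12 h the 2 higher and 0 lower became 1 and 1, 0 and 2, and 0 and 4, and in AD at 72 h edgeR gave 2 higher and 5 lower. In CH at 3 h the 5 higher and 1 lower became 1 and 2, 1 and 1, and 1 and 2, and in CH at 72 h the 3 higher and 0 lower became 2 and 1, 3 and 0, and 3 and 1. In CH at 12 h all of these settings gave 8 higher and 0 lower, and in OS at 12 h they gave 6 or 7 higher and 2 lower. Over all 4363 tested genes edgeR called 1002, 1195 and 692 in OS at 3 h, 12 h and 72 h. In AD it called 1013, 729 and 863, and in CH 893, 754 and 942. The 8 of 52 members called with edgeR in CH at 12 h were thus a smaller share than the 754 of all genes. Totals over all genes under the other 2 settings are not given here. The members called under all 4 settings were Hspa9 and Sec14l2 in OS at 3 h, Sec14l2 in AD at 3 h, and Hspb7 and Sec14l2 in CH at 3 h. At 12 h they were Cct6a, Cct7, Cct8, Dnajc9, Hspb7, Sec11c, Sec14l2 and Sec31a in OS, and Hspb7, Kdelr2, Pdia5, Sec13, Sec23a, Sec24d, Sec61a1 and Ssr2 in CH. At 72 h they were Hspa4l and Hspb7 in OS, Hspa4l, Hspb7, Pdia5 and Sec14l4 in AD, and Hspb7 and Sec24d in CH.

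**Figure D1:**
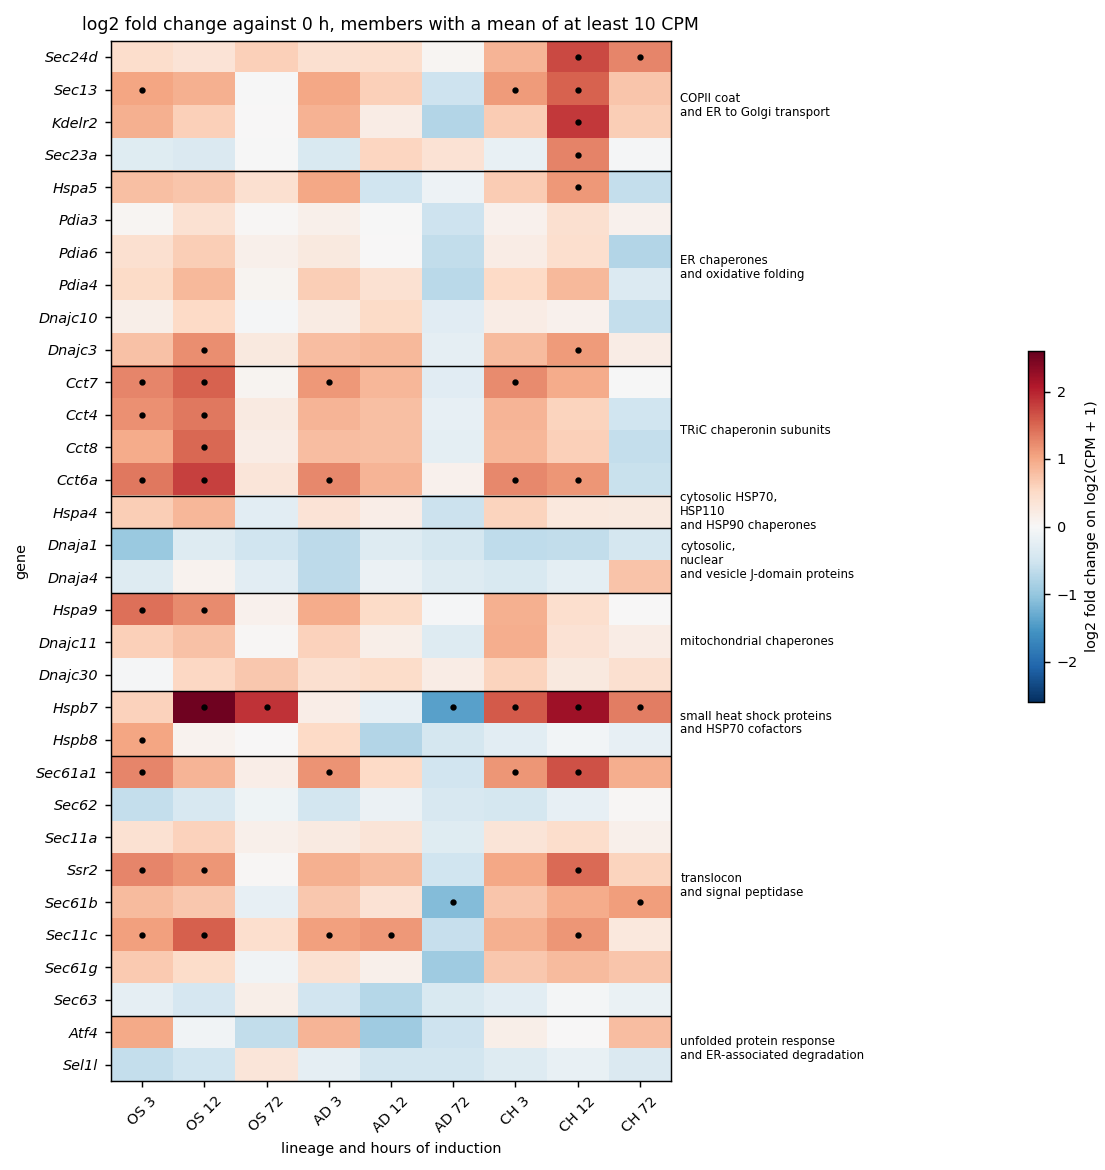
Log2 fold change against 0 h (colour) for the 32 members with a mean of at least 10 CPM (vertical axis, grouped by role) in the 9 groups of 3 samples (horizontal axis), with dots where a member was called. The TRiC subunits are higher at 3 h and 12 h in all lineages, Sec13, Sec23a, Sec24d, Kdelr2, Sec61a1, Sec61g and Ssr2 are highest in CH at 12 h, and 28 of the 32 members lie below 0 in AD at 72 h.

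The median log2 fold change over the 52 tested members was 0.40 in OS at 3 h and 0.36 at 12 h, beside 0.09 for both times over all tested genes. It was 0.33 in CH at 12 h, beside 0.11 over all tested genes. In AD at 72 h it was -0.36, beside -0.05, and 41 of 52 members lay below 0. Since members are on average better covered than other genes, the same was taken over genes with a mean of at least 10 CPM: the 32 members then had medians of 0.66 (OS 3 h), 0.67 (OS 12 h), 0.60 (CH 12 h) and -0.43 (AD 72 h), beside 0.31, 0.46, 0.33 and -0.28 over all 1810 such genes. At 72 h in OS and CH the 32 members had medians of 0.07 and 0.13, beside 0.14 and 0.10. The mean over the 3 samples was highest in OS at 12 h for 11 of the 32 members and in CH at 12 h for 10, and lowest in AD at 72 h for 16. Members took up 4.08% to 4.18% of the reads in listed genes at 0 h, 6.0% to 6.12% in OS at 12 h, 6.5% to 6.74% in CH at 12 h and 3.20% to 3.99% in AD at 72 h, the lowest value being that of AD 72 h sample 3. Without Hspb7, which alone took a large share, these were 3.73% to 3.88%, 4.59% to 4.68%, 5.31% to 5.38% and 3.10% to 3.82%.

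**Figure D2:**
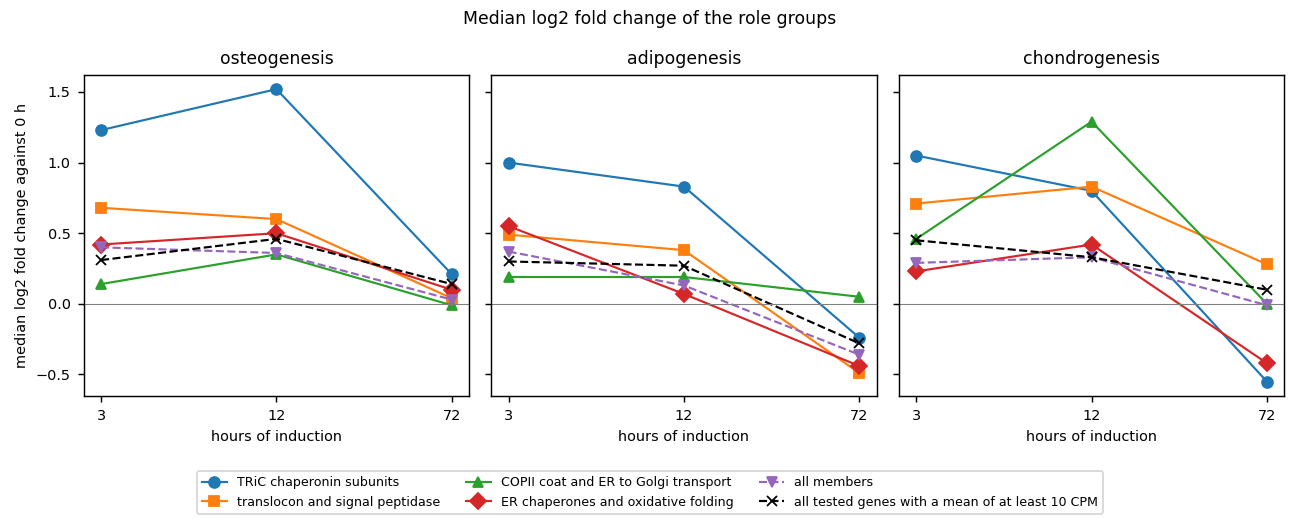
Median log2 fold change against 0 h (vertical axis) at 3 h, 12 h and 72 h (horizontal axis) in each lineage, for 4 roles of members, for all tested members and for all tested genes with a mean of at least 10 CPM. The TRiC median reaches 1.52 in OS at 12 h, the COPII median 1.29 in CH at 12 h, and the ER chaperone and translocon medians lie below 0 in AD at 72 h.

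The subunits of TRiC, the cytosolic chaperonin, were higher at 3 h and 12 h in all lineages. Of 6 member names 4 were tested, Cct4, Cct6a, Cct7 and Cct8. At 3 h 3 of the 4 rose in OS, 2 in AD and 2 in CH (background 18.4%, 18.8% and 18.0% of all tested genes called), and at 12 h 4 rose in OS and 1 in CH (background 21.8% and 14.4%), while in AD their log2 differences were 0.78 to 0.89, short of a call. Their median log2 fold change in OS was 1.23 at 3 h, 1.52 at 12 h and 0.21 at 72 h. In AD it was 1.0, 0.83 and -0.24 at the same times, and in CH 1.05, 0.80 and -0.55. At 3 h and 12 h all 4 subunits lay above 0 in every lineage under each scaling, with medians of 0.52 to 1.19 under the alternatives, but each of the calls at 3 h, the Cct4 call in OS at 12 h and the Cct6a call in CH at 12 h were lost under at least 1 of them. In AD at 72 h the sign of the median changed to 0.13 with quantile normalization.

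Cct7 had 539, 499.6 and 523 CPM at 0 h and 1459.8, 1596 and 1488 CPM in OS at 12 h. The 3 OS samples lay above all 3 samples of 0 h, and Cct7 rose by more than the spread of the samples (log2 fold change 1.54, SE 0.10, adjusted p = 1.02e-13). It also rose at 3 h in OS, AD and CH, with log2 fold changes of 1.27, 1.12 and 1.22. These calls were lost with quantile normalization (0.87, 0.83 and 0.87), and in AD and CH also with median ratios (0.87 and 0.88) and edgeR (0.84 and 0.86). It was back at 592, 511 and 538 CPM in OS at 72 h, where the samples overlapped those of 0 h. Cct6a had 125, 114 and 133 CPM at 0 h and 414, 432 and 439 CPM in OS at 12 h (log2 fold change 1.78, SE 0.14, adjusted p = 5.49e-12). It passed the test in OS, AD and CH at 3 h, though not with quantile normalization (0.91, 0.89 and 0.76), and again in CH at 12 h, the only one of the 4 subunits to do so there (log2 fold change 1.14, SE 0.14, adjusted p = 9.04e-08), though not with quantile normalization, median ratios or edgeR. In CH at 72 h Cct6a had 71.5, 90.2 and 86.9 CPM, with all 3 samples under those of 0 h, and was 0.58 lower on the log2 scale (adjusted p = 0.00125).

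Cct8 had 399, 387 and 421 CPM at 0 h and 1196, 1085 and 1149 CPM in OS at 12 h (log2 fold change 1.5, SE 0.09, adjusted p = 2.87e-14). At 3 h in OS it was 0.97 on the log2 scale, and 1.06 and called without OS 3 h sample 3. Cct4, whose promoter is printed above, had 433, 386 and 442 and 1060.0, 1082 and 1127 CPM (log2 fold change 1.37, SE 0.10, adjusted p = 1.35e-12). Neither pair of groups overlapped. In CH at 72 h both lay under all samples of 0 h, with 264, 267 and 252 CPM for Cct8 and 293, 299 and 291 CPM for Cct4, log2 differences of -0.62 (adjusted p = 2.18e-06) and -0.51 (adjusted p = 0.000128) that are under the limit for a call. The 4 subunits together took 0.258% to 0.280% of the reads in listed genes at 0 h, 0.588% to 0.609% in OS at 12 h and 0.175% to 0.184% in CH at 72 h. Cct6b and Cct8l1 were under the limit for testing.

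**Figure D3:**
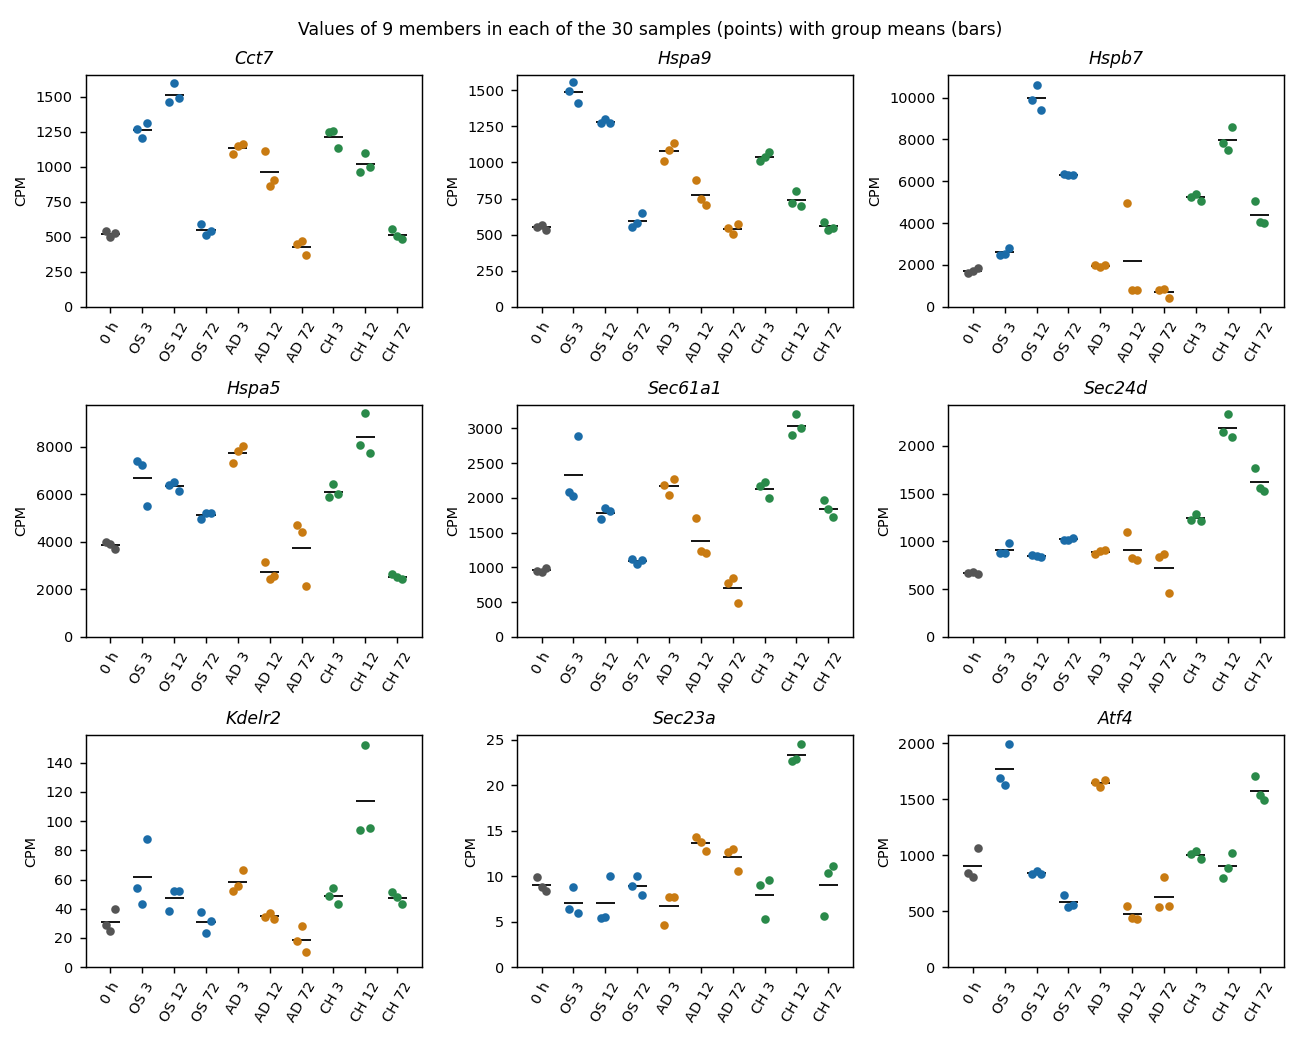
CPM (linear axis) of 9 members in each of the 30 samples, as points by group with a bar at the mean of 3 samples. Cct7 and Hspa9 peak at 3 h or 12 h in OS, Hspa5, Sec61a1, Sec24d, Kdelr2 and Sec23a are highest in CH at 12 h, and Hspb7 shows 1 AD 12 h sample at 4972 CPM beside 818 and 814 CPM.

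Hspb7, a small heat shock protein best known from heart and skeletal muscle, had the largest fitted log2 fold change against 0 h of the tested members. It had 1618, 1704 and 1859.6 CPM at 0 h, 9873, 10591 and 9419 CPM in OS at 12 h and 6324, 6296 and 6309 CPM in OS at 72 h. All 6 of these OS samples were above all samples of 0 h (log2 fold change 2.53, SE 0.36, adjusted p = 8.45e-07 at 12 h, and log2 fold change 1.87, SE 0.36, adjusted p = 0.000149 at 72 h). In CH it had 5229, 5400.3 and 5066 CPM at 3 h, 7814, 7497 and 8594 CPM at 12 h and 5063, 4027 and 4021 CPM at 72 h, each group above 0 h without overlap. The log2 fold changes in CH were 1.60, 2.21 and 1.33 (adjusted p = 0.000566, 1.12e-05 and 0.00393). In AD it moved the other way, with 797, 862 and 396 CPM at 72 h, all below 0 h (log2 fold change -1.41, SE 0.36, adjusted p = 0.00251). At 12 h in AD the samples differed widely, at 4972, 818 and 814 CPM, and the log2 fold change against 0 h was -0.21 with sample 1 and -1.08 and called without it.

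Hspb8, which works with the cochaperone Bag3 in selective autophagy, had 490.0, 486 and 485 CPM at 0 h and 924, 909 and 1181 CPM in OS at 3 h, and rose there (log2 fold change 1.03, SE 0.10, adjusted p = 9.72e-10). All 3 OS samples were above 0 h, but without OS 3 h sample 3 the log2 fold change was 0.91, under the limit for a call, and the call was also lost with quantile normalization (0.69), median ratios (0.79) and edgeR (0.79). It was back at 477, 554 and 523 CPM in OS at 12 h, and in AD at 12 h it had 324, 278 and 262 CPM, below all samples of 0 h with a log2 difference of -0.76 (adjusted p = 4.57e-07) that became a call with median ratios (-1.01) and edgeR (-1.03). Hspbap1, which binds a small heat shock protein, had at most 1.55 CPM and passed in no comparison with 0 h. Hspb2, Hspb3, Hspb9 and Hspb11 were not tested.

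Among cytosolic HSP70 and HSP110 chaperones, Hspa4, a nucleotide exchange factor of HSP70, had 1089, 1114 and 967 CPM at 0 h, 1994, 1871 and 1940.1 CPM in OS at 12 h and 761, 681 and 709 CPM in AD at 72 h. The OS samples were all above 0 h and the AD samples all below it, by log2 differences of 0.87 (adjusted p = 1.89e-07) and -0.56 (adjusted p = 0.000249), neither large enough for a call. Its relative Hspa4l fell at 72 h in OS, from 2.72, 2.65 and 2.88 to 0.448, 0.936 and 0.603 CPM (log2 fold change -1.18, SE 0.30, adjusted p = 0.00322), and in AD to 0.356, 0.532 and 0.792 CPM (log2 fold change -1.27, SE 0.30, adjusted p = 0.00127). The groups did not overlap, but the values at 72 h are close to the limit of detection. At 12 h in AD Hspa4l was -0.72 on the log2 scale, and -1.05 and called without AD 12 h sample 1. In CH at 72 h Hspa4l had 3.08, 5.75 and 6 CPM and did not pass against 0 h (adjusted p = 0.11). Hspa1l ranged from 1.06 to 4.36 CPM and passed in no comparison with 0 h. Hsp90ab1, Hspa12a and Hspa14 were not tested.

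J-domain proteins stimulate HSP70 enzymes, and those of the cytosol, nucleus and vesicles had 6 tested members of 11. Dnajc9, a cochaperone for histones, had 8.02, 3.34 and 5.61 CPM at 0 h and 20.2, 22.4 and 19.3 CPM in OS at 12 h, where it rose without overlap (log2 fold change 1.76, SE 0.28, adjusted p = 5.54e-06). It rose in AD at 12 h to 9.8, 12.7 and 15.7 CPM (log2 fold change 1.09, SE 0.28, adjusted p = 0.00302), a call that was lost without AD 12 h sample 3 (0.93) or 0 h sample 2 (0.81), with median ratios (0.87) or edgeR (0.91), and in a fit of the 6 samples alone (adjusted p = 0.0547 with limma). Dnaja1, a general partner of HSP70, went the other way: it had 627, 580.0 and 589 CPM at 0 h and 379.5, 387 and 195 CPM in OS at 3 h. All 9 later groups lay below 0 h without overlap, with log2 differences of -0.96 in OS at 3 h (adjusted p = 2.53e-06), -0.68 in AD at 3 h and -0.66 in CH at 3 h, none of which was a call. The OS 3 h value passed with quantile normalization (-1.30), median ratios (-1.21) and edgeR (-1.13), and was -0.64 without OS 3 h sample 3. The CH 3 h value passed with quantile normalization (-1.03) and edgeR (-1.02). Dnaja4, another HSP70 partner, had 89.1, 90.3 and 80.1 CPM at 0 h, 56, 52.2 and 51.6 CPM in AD at 3 h and 174, 133 and 135 CPM in CH at 72 h. The CH samples were all above 0 h, by 0.75 (adjusted p = 9.78e-06) on the log2 scale, short of a call. Dnajc27, which joins a small GTPase to a J domain, had 1.8, 2.65 and 2.45 CPM in CH at 72 h beside 4.3, 5.71 and 5.76 CPM at 0 h, a log2 difference of -0.92 (adjusted p = 0.00476). That value became a call with a pseudocount of 0.1 (-1.17), quantile normalization (-1.05) or edgeR (-1.25), and without 0 h sample 1 (-1.04) or CH 72 h sample 2 (-1.0).

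Hspa9 (mortalin), the HSP70 of the mitochondrial matrix and import motor, rose most of the mitochondrial members. It had 552, 567 and 529 CPM at 0 h, 1493, 1557 and 1415 CPM in OS at 3 h and 1273, 1301 and 1272 CPM in OS at 12 h. Both OS groups were well above 0 h (log2 fold change 1.44, SE 0.09, adjusted p = 1.21e-13 at 3 h, and log2 fold change 1.22, SE 0.09, adjusted p = 2.57e-12 at 12 h), and the 3 h call was kept under each scaling while the 12 h call was not. In AD and CH at 3 h it had 1010.1, 1088 and 1137 and 1007, 1039 and 1073 CPM, again above 0 h, with log2 differences of 0.97 (adjusted p = 5.69e-10) and 0.92 (adjusted p = 1.43e-09), short of a call. The AD value was 1.02 and called without AD 3 h sample 1. By 72 h the samples of all lineages overlapped those of 0 h, at 550.1, 582 and 648 CPM in OS, 544, 502 and 575 in AD and 587, 535 and 548 in CH. Dnajc11, a mitochondrial membrane protein tied to cristae, had 54.7, 52 and 43.1 CPM at 0 h and 105, 99.8 and 86.9 CPM in CH at 3 h, a log2 difference of 0.95 (adjusted p = 3.57e-06). Dnajc30, a J-domain protein of mitochondria, had 42.7, 46.1 and 49.4 CPM at 0 h and 75.5, 69.9 and 80.5 CPM in OS at 72 h, a difference of 0.70 (adjusted p = 0.000225). Dnajc19, a part of the import motor, stayed between 1.07 and 5.16 CPM and passed in no comparison with 0 h. Over the 6 tested mitochondrial members, only Hspa9 was called against 0 h, in OS at 3 h and 12 h (background 18.4% and 21.8% of all tested genes called).

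ER chaperones and oxidative folding genes had 10 tested members of 12, and 3 of them rose in CH at 12 h, namely Hspa5, Dnajc3 and Pdia5, beside a background there of 14.4% of all tested genes called and 9.44% called higher. Their median log2 fold change was 0.42 in CH at 12 h and 0.50 in OS at 12 h. At 72 h it was 0.10 in OS (-0.05 to -0.07 under the other scalings), -0.42 in CH and -0.44 in AD, where all 10 lay below 0. The AD 72 h median stayed below 0 under the other scalings (-0.29 to -0.43), but 1 or 2 of the 10 were then above 0. Part of this drop rested on 1 library, as Hspa5 went from -0.13 to 0.24 without AD 72 h sample 3. The group took 2.32%, 2.16% and 1.55% of the reads in listed genes in AD 72 h samples 1, 2 and 3, beside 2.06% to 2.23% at 0 h. In CH at 3 h all 10 lay above 0, with a median of 0.23, while the other scalings left 5 above and 5 below.

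Hspa5, which encodes BiP, had 4013, 3896 and 3697 CPM at 0 h and 8101, 9416 and 7762 CPM in CH at 12 h. All CH samples were above 0 h and BiP rose (log2 fold change 1.12, SE 0.18, adjusted p = 5.61e-06), although not with quantile normalization, median ratios or edgeR. By 72 h in CH it had 2636, 2538 and 2429 CPM, below all samples of 0 h with a log2 difference of -0.61 (adjusted p = 0.00624). In AD it had 7335, 7844 and 8034 CPM at 3 h and 3175, 2459 and 2562 CPM at 12 h, above and then below 0 h without overlap. The log2 differences in AD were 1.0 (adjusted p = 2.42e-05) at 3 h, just under the limit of 1 before rounding, and -0.51 (adjusted p = 0.0231) at 12 h. At 72 h in AD sample 3 had 2124 CPM beside 4729 and 4421 CPM, and the group overlapped that of 0 h. In OS it stayed above 0 h at each time, with 7397, 7223 and 5502 CPM at 3 h, 6399, 6513 and 6160.2 CPM at 12 h and 4972, 5221 and 5228 CPM at 72 h, and no call.

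Dnajc3, a J-domain partner of BiP that also restrains the kinase PERK, had 235, 224 and 215 CPM at 0 h, 519, 506 and 529 CPM in OS at 12 h and 471, 522 and 469 CPM in CH at 12 h. Both groups were above 0 h without overlap (log2 fold change 1.2, SE 0.12, adjusted p = 4.99e-10 in OS, and log2 fold change 1.11, SE 0.12, adjusted p = 5.06e-09 in CH), and both calls were lost under other scalings. In AD at 12 h it had 416, 409.7 and 380.4 CPM, a difference of 0.84 (adjusted p = 9.63e-07). The disulfide isomerases Pdia3, Pdia4 and Pdia6 made no call against 0 h. Pdia4 had 1287, 1216 and 1219 CPM at 0 h, 2168, 2308 and 2207 CPM in OS at 12 h and 2149, 2424 and 2136 CPM in CH at 12 h, all above 0 h, with log2 differences of 0.84 (adjusted p = 0.000209) and 0.85 (adjusted p = 0.000276). Pdia6 had 1555, 1505 and 1469.8 CPM at 0 h, 2324, 2435 and 2289.9 CPM in OS at 12 h and 959, 889 and 828 CPM in CH at 72 h, the last of these all below 0 h (-0.76, adjusted p = 0.00043). Pdia3 had 4077, 3879 and 3638 CPM at 0 h and 3197, 2935 and 2053 CPM in AD at 72 h, all below 0 h (-0.53, adjusted p = 0.00198). In AD 72 h sample 3 all 3 isomerases were well under the other samples of that group, with 426 CPM for Pdia4 and 578 CPM for Pdia6.

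Pdia5, a less abundant isomerase in these files, had 1.86, 2.65 and 5 CPM at 0 h and 6.5, 7.79 and 10.5 CPM in CH at 12 h, where it rose (log2 fold change 1.2, SE 0.33, adjusted p = 0.00402), with 0.96 and no call without 0 h sample 1. In AD at 72 h it had 0.89, 1.42 and 0.158 CPM and fell (log2 fold change -1.19, SE 0.33, adjusted p = 0.00455), with -0.89 and no call without AD 72 h sample 3 or without 0 h sample 3, and no call in a fit of the 6 samples alone (adjusted p = 0.0813 with limma). Neither group overlapped 0 h. Calr, the lectin chaperone calreticulin, was listed at 1 to 25 reads, with 2.21, 3.93 and 2.23 CPM in AD at 3 h and 1.72, 0.975 and 0.455 CPM at 0 h, and passed in no comparison with 0 h. Hsp90b1 (GRP94) had at most 5 reads and was not tested, nor was Dnajb9.

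The translocon and signal peptidase genes had 9 tested members of 10, and 3 of them rose in CH at 12 h, Sec61a1, Ssr2 and Sec11c (background 14.4%, or 9.44% for higher calls). Their median log2 fold change was 0.83 in CH at 12 h, 0.68 in OS at 3 h and -0.49 in AD at 72 h, where 8 of 9 lay below 0. Under the other scalings the median in CH at 12 h was 0.50 to 0.72 and in AD at 72 h -0.25 to -0.36.

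Sec61a1, the channel-forming subunit of the translocon, had 955, 938 and 992 CPM at 0 h and 2897, 3203 and 3002 CPM in CH at 12 h. No CH sample overlapped 0 h and Sec61a1 rose (log2 fold change 1.66, SE 0.15, adjusted p = 2.96e-10). It rose at 3 h in all lineages, by log2 fold changes of 1.26 in OS, 1.17 in AD and 1.15 in CH, calls that were not kept under every scaling. At 72 h it had 1963, 1841 and 1724 CPM in CH, still above 0 h (0.94, adjusted p = 6.66e-06), and 774, 853 and 485 CPM in AD, below 0 h (-0.49, adjusted p = 0.0105). Ssr2, a subunit of the translocon-associated TRAP complex, had 101, 84 and 98.6 CPM at 0 h and 264, 268 and 264 CPM in CH at 12 h (log2 fold change 1.48, SE 0.19, adjusted p = 2.76e-07). In OS it rose at 3 h to 195, 169 and 359 CPM (log2 fold change 1.27, SE 0.19, adjusted p = 2.75e-06), but without OS 3 h sample 3 the value was 0.94, and at 12 h it had 192, 232 and 210.2 CPM (log2 fold change 1.15, SE 0.19, adjusted p = 9.96e-06). The OS 3 h call was lost with quantile normalization (0.83), and the OS 12 h call with quantile normalization (0.57), median ratios (0.82) and edgeR (0.76).

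Sec11c, a catalytic subunit of signal peptidase, had 64.6, 59.3 and 56 CPM at 0 h, 179, 184 and 170.3 CPM in OS at 12 h, 134, 130.4 and 134 CPM in AD and 133, 124 and 146 CPM in CH at the same time. All 9 samples were above 0 h, and Sec11c rose in each lineage, by 1.55 ± 0.12 (SE), 1.13 ± 0.12 and 1.15 ± 0.12 on the log2 scale (adjusted p = 7.4e-12, 1.21e-08 and 8.36e-09). Only the OS call was kept under each scaling. Its relative Sec11a had 284, 281 and 316 CPM at 0 h and 434, 467 and 437 CPM in OS at 12 h, a difference of 0.60 (adjusted p = 6.81e-06) with no call.

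The small channel subunit Sec61b split by lineage at 72 h. It had 92.2, 91.4 and 88 CPM at 0 h, 48.3, 47.7 and 30.4 CPM in AD and 260.0, 167 and 163 CPM in CH. The AD samples were all below 0 h (log2 fold change -1.12, SE 0.17, adjusted p = 2.75e-06) and the CH samples all above it (log2 fold change 1.08, SE 0.17, adjusted p = 3.98e-06). Each call rested on 1 library: the values were -0.90 without AD 72 h sample 3 and 0.86 without CH 72 h sample 1. The AD call was also lost with quantile normalization (-0.97) and median ratios (-0.93), and the CH call with quantile normalization (0.88). Sec62, which serves entry after translation, had 487, 477 and 487 CPM at 0 h and 318, 355 and 274 CPM in OS at 3 h. It lay below 0 h at 3 h in all lineages, with log2 differences of -0.62 (adjusted p = 2.09e-05) in OS, -0.47 (adjusted p = 0.000645) in AD and -0.45 (adjusted p = 0.00099) in CH, short of a call.

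The COPII coat and ER to Golgi genes had 7 tested members of 8, and 4 of them, Sec13, Sec23a, Sec24d and Kdelr2, rose in CH at 12 h (background 14.4%, or 9.44% for higher calls). Their median log2 fold change there was 1.29, with 1.07 to 1.28 under the other scalings and the same 4 members called, beside 0.11 over all tested genes. The median was 0.35 in OS and 0.19 in AD at 12 h, and it was not stable in sign in OS (-0.05 with quantile normalization and -0.06 with edgeR). The reads of these members were 0.172% to 0.180% of those in listed genes at 0 h, 0.464% to 0.490% in CH at 12 h, 0.191% to 0.196% in OS at 12 h and 0.216% to 0.252% in AD at 12 h.

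Sec24d, a cargo-binding subunit of the inner coat known for procollagen export in cartilage, had 666, 680.3 and 657 CPM at 0 h and 2148, 2338 and 2089 CPM in CH at 12 h. No sample overlapped (log2 fold change 1.71, SE 0.15, adjusted p = 1.04e-10), and at 72 h it was still at 1769, 1562 and 1526 CPM (log2 fold change 1.27, SE 0.15, adjusted p = 2.37e-08). In OS and AD at 12 h it had 855, 853 and 839.5 and 1099.7, 828 and 801 CPM, above 0 h by 0.35 (adjusted p = 0.0553) and 0.43 (adjusted p = 0.0221). Sec23a, its partner in the inner coat, which carries a UPRE in the promoter printed above, had 9.88, 8.78 and 8.34 CPM at 0 h and 22.7, 22.9 and 24.6 CPM in CH at 12 h. It rose there (log2 fold change 1.29, SE 0.25, adjusted p = 9.27e-05) and was at 5.64, 10.4 and 11.1 CPM by 72 h, where it overlapped 0 h.

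Sec13, of the outer coat, had 231, 249 and 221 CPM at 0 h and 634, 779 and 632 CPM in CH at 12 h (log2 fold change 1.53, SE 0.16, adjusted p = 3e-09). It also rose at 3 h in CH (494, 507 and 501 CPM, log2 fold change 1.10) and in OS (456, 449 and 529.7 CPM, log2 fold change 1.03), of which the OS call was lost without OS 3 h sample 3 (0.95) or 0 h sample 3 (0.99). Both of these calls were lost with quantile normalization (0.65 in CH and 0.63 in OS), median ratios (0.76 and 0.79) and edgeR (0.74 and 0.78). Kdelr2, which returns ER proteins from the Golgi, had 28.5, 24.7 and 39.6 CPM at 0 h and 93.9, 152 and 95.2 CPM in CH at 12 h. All CH samples were above 0 h (log2 fold change 1.84, SE 0.26, adjusted p = 9.21e-07), sample 2 being the highest. Sec31a, the partner of Sec13, did not follow: it had 5.87, 4.88 and 2.27 CPM at 0 h, 6.21, 3.43 and 4.28 CPM in CH at 12 h and 0.753, 1.2 and 2.59 CPM in OS at 12 h. It fell in OS (log2 fold change -1.09, SE 0.35, adjusted p = 0.0125), but the samples overlapped, and the value was -0.86 without OS 12 h sample 1 and -0.87 without 0 h sample 1, neither a call, and -0.98 without 0 h sample 2, also not a call. In a fit of the 6 samples alone the adjusted p was 0.0677 (limma). At 3 h in OS the sign of Sec31a turned on 1 library, with -0.32 and 0.16 without OS 3 h sample 3. Sec31b and Surf4, a cargo receptor, were near or under the limit of detection. Surf4 was listed at 0 in most libraries and at 3.64 CPM in AD 72 h sample 3.

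Of the unfolded protein response genes, Atf4, a transcription factor translated when the kinase PERK or its relatives phosphorylate eIF2 alpha, had 839.5, 803 and 1065 CPM at 0 h. At 3 h it had 1689, 1629.5 and 1994 CPM in OS, 1655, 1604 and 1671 in AD and 1008, 1034 and 967 in CH. The OS and AD samples were all above 0 h, by 0.98 (adjusted p = 4.04e-07) and 0.88 (adjusted p = 2.82e-06), both under the limit of 1, while CH overlapped 0 h (0.16, adjusted p = 0.353). At 12 h the AD samples were lower, at 546, 439.9 and 432 CPM (-0.93, adjusted p = 1.57e-06), and at 72 h the CH samples were higher, at 1705, 1536 and 1487 CPM (0.81, adjusted p = 9.28e-06). Single libraries or the scaling moved these values past the limit: the OS 3 h value was 1.01 to 1.10 without OS 3 h sample 1, OS 3 h sample 2 or 0 h sample 3, and the AD 12 h value was -1.04 without AD 12 h sample 1, -1.01 without 0 h sample 2 and -1.13 to -1.2 under the other scalings. The AD 3 h value was 1.0 and called without 0 h sample 3. Sel1l, the adaptor of the HRD1 complex for ER-associated degradation, had 553, 525 and 609 CPM at 0 h and 345, 341 and 409.6 CPM in OS at 3 h, all below 0 h (-0.62, adjusted p = 0.000197), and 734, 643 and 724 CPM in OS at 72 h. Atf6, an ER membrane sensor, was listed at 0 to 0.532 CPM and was not tested.

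5 names match the rule by their letters only and belong to no secretory role here, Sec1 and the lipid-binding Sec14l genes. Sec14l2 had 6.45, 8.08 and 8.04 CPM at 0 h and 1.72, 1.11 and 2.35 CPM in OS at 3 h, and fell without overlap (log2 fold change -1.66, SE 0.23, adjusted p = 7.71e-07). It fell at 3 h in AD and CH as well, with log2 fold changes of -1.12 and -1.15, and had 14.1, 13.7 and 10.7 CPM in CH at 72 h (0.70, adjusted p = 0.019). The CH 3 h value was -0.99 without CH 3 h sample 2. In OS at 12 h it fell as well (-1.02), with -0.88 to -0.98 without OS 12 h sample 3, 0 h sample 2 or 0 h sample 3, and in AD at 72 h (-1.03), with -0.90 to -0.98 without AD 72 h sample 1 or the same samples of 0 h and -0.89 with median ratios. Sec14l4 was listed at 0 in all samples of 0 h and at 3.2, 1.95 and 1.27 CPM in AD at 72 h. That is at least 4.71-fold higher, taking 3 reads per library as the floor.

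From 12 h to 72 h most members that moved went down. In OS 10 fell and 0 rose (background 23.2%), in AD 12 fell and 1 rose (background 16.0%), and in CH 9 fell and 3 rose (background 13.2%). The medians over the 52 members were -0.46, -0.50 and -0.41, beside -0.01, -0.18 and -0.11 over all tested genes. Median-ratio scaling moved the fold changes by a median over all tested genes of 0.14 in OS, 0.34 in AD and 0.16 in CH, and Cct7 in AD, for example, from -1.16 to -0.71. With it the OS split became 2 higher and 5 lower, the AD split 1 and 4, and the CH split 4 and 5. Quantile normalization gave 1 and 4, 1 and 4, and 1 and 6, and edgeR 2 and 5, 2 and 5, and 3 and 8. Over all 4363 tested genes edgeR called 1325 in OS, 828 in AD and 654 in CH. Without AD 72 h sample 3 the AD count was 8 in place of 13. With the adjusted p alone 27 members passed in OS, 28 in AD and 23 in CH (background 46.4%, 41.2% and 35.0%).

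In OS all 4 tested TRiC subunits fell from 12 h to 72 h, led by Cct6a (157 ± 32.5 CPM against 428 ± 12.6 CPM, log2 fold change -1.47, SE 0.14, adjusted p = 3.54e-10) and Cct7 (-1.47 ± 0.10). Dnajc9 fell by the most, with 3.79 ± 1.28 CPM against 20.7 ± 1.59 CPM (log2 fold change -2.21, SE 0.28, adjusted p = 1.27e-07). Hspa9 (-1.11), Hspa4 (-1.16), Hspa4l (-1.22), Sec11c (-1.12) and Ssr2 (-1.11) fell as well. Cct6a, Cct7, Dnajc9 and Hspa4l were called under each scaling, but Hspa4l was -0.99 without OS 12 h sample 2.

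In AD the largest falls among members above 10 CPM on average were in translocon and signal peptidase genes. Sec11c had 39.7 ± 6.06 CPM against 133 ± 1.98 CPM (log2 fold change -1.72, SE 0.12, adjusted p = 1.12e-12), Sec61b 42.1 ± 10.1 CPM against 119 ± 15.7 CPM (-1.49) and Ssr2 67.9 ± 21.4 CPM against 167 ± 3.17 CPM (-1.34). Cct7, Cct8, Dnajc3, Dnajc9, Pdia4, Pdia5, Sec13 and Sec61g also fell, with log2 fold changes from -1.78 (Dnajc9) to -1.04 (Cct8). The falls of Dnajc3, Pdia4, Sec13 and Sec61g were under the limit without AD 72 h sample 3, at -0.93, -0.68, -0.89 and -0.69. Without AD 12 h sample 1 the falls of Cct8 (-0.94) and Sec13 (-0.95) were under it, and without AD 72 h sample 1 that of Sec61g (-0.92). Hspb7 had a log2 fold change of -1.2 with overlapping samples, and of -0.33 without AD 12 h sample 1 and -0.85 without AD 72 h sample 3. Dnajc9, Pdia5, Sec11c, Sec14l4 and Sec61b were called under each scaling, Sec14l4 being the 1 that rose.

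In CH, BiP fell furthest, with 2534 ± 103 CPM against 8426 ± 874 CPM (log2 fold change -1.73, SE 0.18, adjusted p = 3.38e-09). Cct6a, Cct8, Cct4, Pdia4, Pdia6, Kdelr2, Sec23a and Dnajc27 fell by log2 fold changes between -1.09 (Cct4) and -1.72 (Cct6a), and Dnaja4, Sec14l2 and Hspa4l rose by 1.02, 1.05 and 1.08. The Kdelr2 fall was -0.98, under the limit, without CH 12 h sample 2, and the Dnaja4 rise was 0.89 without CH 72 h sample 1 and 0.96 without CH 12 h sample 1. The Hspa4l rise was 0.97, 0.95 and 0.84 without CH 72 h sample 2, CH 72 h sample 3 and CH 12 h sample 2, and the Sec14l2 rise was 0.98 and 0.94 without CH 72 h sample 1 and CH 12 h sample 1. Sec61a1 was also lower at 72 h, with 1842 ± 119.6 CPM against 3034 ± 155 CPM (log2 fold change -0.72, SE 0.15, adjusted p = 0.000282), and so was Sec24d, with 1619 ± 131 CPM against 2192 ± 129.8 CPM (log2 fold change -0.44, SE 0.15, adjusted p = 0.0192). Neither overlapped its 12 h samples, and both were under the limit for a call. Hspa5, Cct6a, Cct8, Sec23a and Dnajc27 fell and Dnaja4 rose under each scaling.

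The lineages differed little in these members at 3 h. OS and AD differed in 1 member (background 7.66%), Calr, which was lower in OS (0.454 ± 0.318 CPM against 2.79 ± 0.989 CPM, log2 fold change -1.38, adjusted p = 0.00063) at a few reads per library. OS and CH differed in 1 (background 7.31%), Hspb8, which was higher in OS (1005 ± 153 CPM against 403 ± 27.2 CPM, log2 fold change 1.31, SE 0.10, adjusted p = 3.92e-11). CH and AD differed in 1 (background 9.35%), Hspb7, which was higher in CH (5232 ± 167 CPM against 1957 ± 51.8 CPM, log2 fold change 1.42, SE 0.36, adjusted p = 0.0043). With the adjusted p alone 7, 6 and 4 members passed in these comparisons (background 17.2%, 18.3% and 20.1%). All 3 calls were kept under each scaling, and quantile normalization added 1 member lower in OS than in CH.

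At 12 h Sec24d, Kdelr2 and Pdia5 were called higher in CH than in both other lineages, while the share of members called was 11.5% against each, below the background of 13.6% for CH and AD and 16.0% for OS and CH. CH exceeded AD in 6 members and was lower in none, namely Hspb7, Kdelr2, Hspa5, Sec24d, Sec61a1 and Pdia5. BiP was 8426 ± 874 CPM against 2732 ± 387 CPM (log2 fold change 1.63, SE 0.18, adjusted p = 1.08e-08), with all CH samples above all AD samples, and Kdelr2 was 114 ± 33.1 CPM against 34.8 ± 2.37 CPM (log2 fold change 1.65, SE 0.26, adjusted p = 6.88e-06). Sec24d and Sec61a1 were higher in CH by 1.28 ± 0.15 and 1.15 ± 0.15 (SE), the latter not with quantile normalization. Pdia5 was higher in CH by 1.07, a call lost without CH 12 h sample 3 (0.90) and with a pseudocount of 0.1. Hspb7 was higher by 2.42, and by 3.28 without AD 12 h sample 1. Against CH, OS was lower in 5 members and higher in 1. Sec23a (-1.65), Sec24d (-1.37), Kdelr2 (-1.22), Sec31a (-1.2) and Pdia5 (-1.06) were lower in OS, so 4 of the 7 tested COPII genes differed, and Dnajc9 was higher in OS (1.55). The same calls were made under each scaling, but 3 of them turned on single libraries. Sec31a was not called without OS 12 h sample 1 (-0.98) or CH 12 h sample 1 (-1.01, adjusted p = 0.0505 with limma). Pdia5 was not called without OS 12 h sample 1 (-0.61) or CH 12 h sample 3 (-0.89), nor in a fit of the 6 samples alone, and Kdelr2 was not called without CH 12 h sample 2 (-1.0, just under the limit before rounding). BiP did not pass between OS and CH (-0.40, adjusted p = 0.0752), and over the 10 tested ER chaperones the median of OS minus CH was 0.04, with 5 above 0 and 5 below. OS exceeded AD in Hspb7 (2.74, and 3.61 without AD 12 h sample 1) and Hspa5 (1.23) and was lower in Sec31a (-1.27), 3 members beside a background of 13.2%. The split was 2 higher and 2 lower with edgeR, and without AD 12 h sample 1 the count was 5. BiP was thus lowest in AD at 12 h, at 3175, 2459 and 2562 CPM, beside 6399, 6513 and 6160.2 CPM in OS and 8101, 9416 and 7762 CPM in CH, and no sample of one lineage reached the range of another. With the adjusted p alone 20 members passed between OS and AD, 20 between OS and CH and 18 between CH and AD at 12 h (background 33.3%, 35.7% and 30.7%).

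**Figure D4:**
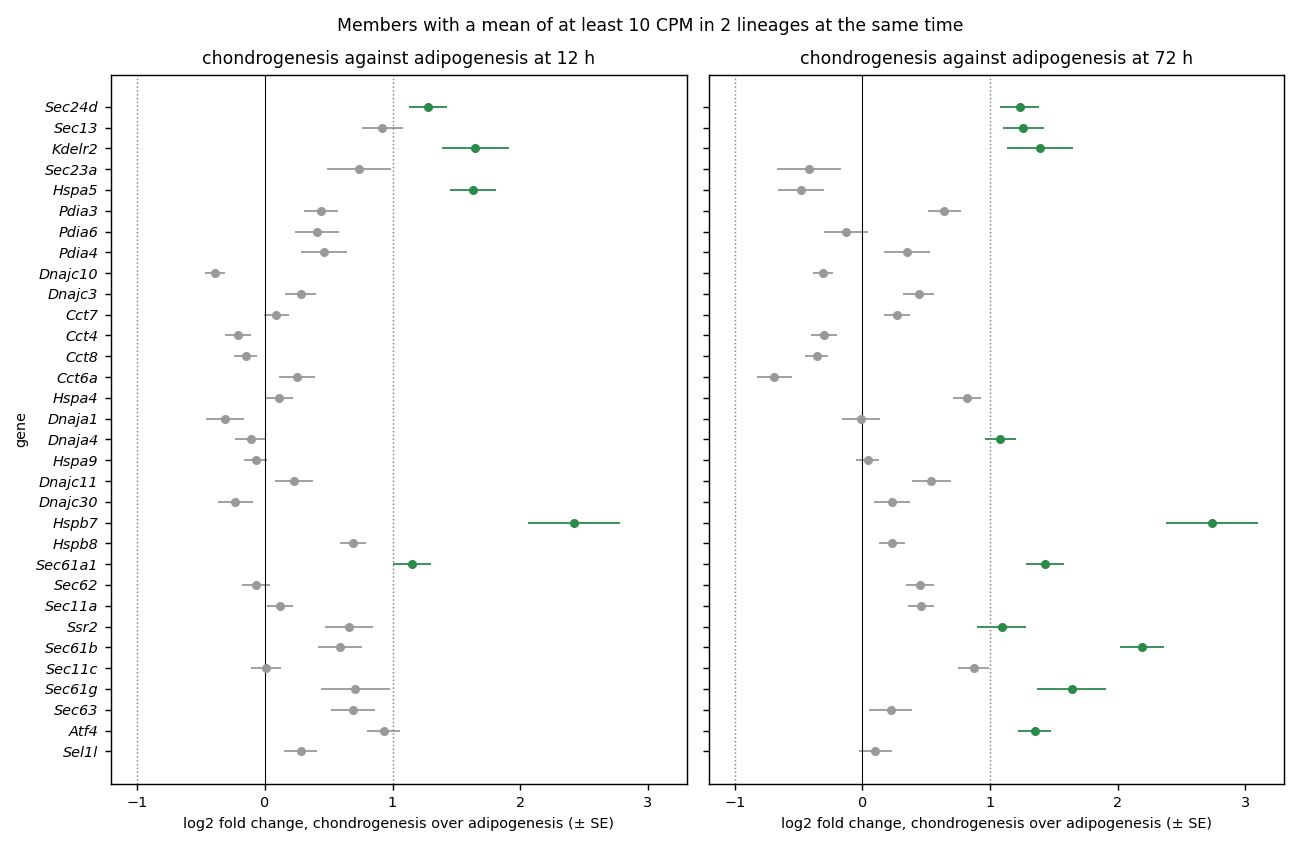
Log2 difference between CH and AD (horizontal axis, with the SE of the fit, 3 samples per group) at 12 h and 72 h for the 32 members with a mean of at least 10 CPM (vertical axis), green where called. At 12 h Hspb7, Kdelr2, Hspa5, Sec24d and Sec61a1 are called higher in CH. At 72 h Hspb7, Sec61b, Sec61g, Sec61a1, Kdelr2, Atf4, Sec13, Sec24d, Ssr2 and Dnaja4 are. Pdia5, Hspa4l, Sec14l2 and Sec14l4, called in the text, have lower means and are not drawn.

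At 72 h CH and AD differed in 14 members, 13 of them higher in CH (background 25.5%, with 16.5% of all tested genes higher in CH). Median-ratio scaling moved the fold changes by a median over all tested genes of -0.19 here, and the split of 13 higher and 1 lower became 7 and 2 with quantile normalization, 11 and 1 with median ratios and 12 and 2 with edgeR. Hspb7 (4370.3 ± 599.5 CPM against 685 ± 252 CPM, log2 fold change 2.74, adjusted p = 1.91e-07) and Sec61b (196 ± 55.1 CPM against 42.1 ± 10.1 CPM, log2 fold change 2.19, SE 0.17, adjusted p = 2.4e-12) differed most. The translocon genes Sec61g (1.64), Sec61a1 (1.43) and Ssr2 (1.09) and the export genes Kdelr2 (1.39), Sec13 (1.26) and Sec24d (1.23) were higher in CH. So were Hspa4l (1.90), Sec14l2 (1.73), Pdia5 (1.67), Atf4 (1.35) and Dnaja4 (1.08). The calls of Atf4, Dnaja4, Sec13, Sec24d, Sec61a1 and Ssr2 were each lost under at least 1 other scaling, while the rest were kept under each. Without AD 72 h sample 3, which had the lowest values of Sec24d (455 CPM) and Ssr2 (44.4 CPM) in its group, Sec24d (0.93) and Ssr2 (0.81) were under the limit. Ssr2 was 0.99 without CH 72 h sample 2, and Dnaja4 was 0.95 without CH 72 h sample 1. The stromal marker sum was 646 to 801 CPM in AD at 72 h and 2850 to 3120 CPM in CH at 72 h, and its part in these differences was not tested.

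OS and AD at 72 h differed in 4 members (background 13.7%): Hspb7 (6309.6 ± 14.1 CPM against 685 ± 252 CPM, log2 fold change 3.28, SE 0.36, adjusted p = 2.36e-08), Pdia5 (1.31) and Sec11c (1.02) were higher in OS and Sec14l4 was lower, by at least 4.57-fold. With edgeR the split was 2 higher and 2 lower, and Sec11c was at 0.92 without AD 72 h sample 3 and 0.99 without OS 72 h sample 2. Without AD 72 h sample 2 the count was 8. OS and CH at 72 h differed in 6 members (background 19.6%). Hspa4l (-1.81), Atf4 (577 ± 58.2 CPM against 1576 ± 114 CPM, log2 fold change -1.45, adjusted p = 2.03e-10), Sec61b (-1.28) and Dnaja4 (-1.02) were lower in OS, and Hspa5 (1.02) and Dnajc27 (1.02) were higher. Only Hspa4l, Atf4 and Sec61b were called under each scaling. The other calls were also lost without single libraries: Hspa5 was 0.99 without CH 72 h sample 3, Dnajc27 0.89 without OS 72 h sample 2 and 0.90 without CH 72 h sample 1, and Dnaja4 -0.90 without CH 72 h sample 1, -0.98 without OS 72 h sample 3 and just under the limit without OS 72 h sample 2. The split of 2 higher and 4 lower became 1 and 3 with quantile normalization, 0 and 4 with median ratios and 1 and 5 with edgeR. Atf4 and BiP thus stood in opposite order in these groups: Atf4 had 1705, 1536 and 1487 CPM in CH and 643, 535 and 553 CPM in OS, while BiP had 2636, 2538 and 2429 CPM in CH and 4972, 5221 and 5228 CPM in OS. With the adjusted p alone 29 members passed between OS and AD, 20 between OS and CH and 31 between CH and AD at 72 h (background 38.0%, 40.8% and 49.6%).

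Other genes of the same pathways were counted from 5 lists. Of 39 other unfolded protein response and degradation genes 17 were tested, and in CH at 12 h 4 rose (Creb3l1, Edem2, Cdk5rap3 and Txndc5) and 2 fell (Chac1 and Ppp1r15a), beside 14.4% of all tested genes called there and 9.44% called higher. Creb3l1 (OASIS), an ER-bound transcription factor of matrix-secreting cells, was 1967 ± 367 CPM against 273 ± 8.06 CPM (log2 fold change 2.83, SE 0.18, adjusted p = 7.06e-14) and stayed high at 72 h (2.97). Chac1, a stress gene known as a target of ATF4, was 229 ± 8.74 CPM against 25.5 ± 2.26 CPM in AD at 3 h (log2 fold change 3.12, SE 0.18, adjusted p = 1.11e-14), and Sesn2, another stress gene, 954 ± 37.2 CPM against 179 ± 7.17 CPM (2.40). In OS at 3 h both rose, by 1.92 and 1.43, and in CH at 72 h by 2.94 and 1.63. Asns, an asparagine synthetase gene also known as such a target, was called in AD at 3 h only, of the 9 comparisons with 0 h. In AD at 12 h Creb3l1 rose (1.85), as it did in CH at 3 h (1.32), while Chac1 (-1.98) and Ppp1r15a (-2.34), the phosphatase subunit that ends the response, fell.

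Of 29 COPI, TMED and cargo receptor genes 16 were tested, and 5 rose in CH at 12 h, Copz2, Yif1a, Copb1, Preb and Copa, with none lower (9.44% of all tested genes were called higher). Copz2 was 472 ± 44.9 CPM against 187 ± 11.2 CPM (log2 fold change 1.33, SE 0.20, adjusted p = 3.79e-06). Preb, the exchange factor that starts COPII assembly, was 224 ± 21.3 CPM against 106 ± 2.33 CPM (log2 fold change 1.07, SE 0.13, adjusted p = 1.36e-07) and higher still at 3 h in CH (1.37). The median of the list at 12 h was 0.73 in CH, 0.41 in OS and 0.33 in AD. Of 22 collagen folding and export genes 9 were tested, and 3 rose in CH at 12 h beside the same background: the prolyl hydroxylase P3h1 (1089 ± 70.9 CPM against 298 ± 7.13 CPM, log2 fold change 1.87, SE 0.15, adjusted p = 4.81e-11), the collagen chaperone Serpinh1 (HSP47, 1.2) and the isomerase Fkbp14 (1.55). The lysyl hydroxylase Plod1 fell in AD at 72 h (532 ± 168 CPM against 1406 ± 75.4 CPM, log2 fold change -1.45, SE 0.16, adjusted p = 1.73e-08) and at 12 h (-1.02).

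Of 25 signal recognition, oligosaccharyltransferase and signal peptidase genes 14 were tested. In CH at 12 h Rpn1 rose (1.10, background 14.4%) and at 72 h Spcs3 fell (-1.15, background 18.0%). In OS Stt3b rose at 3 h (1.48, background 18.4%), and Stt3b (1.14) and Tram1 (1.0) at 12 h (background 21.8%). In AD Ostc (1.09) and Spcs2 (1.03) rose at 3 h (background 18.8%), and at 72 h Ostc fell (-1.08, background 15.3%) and the list median was -0.47. Of 31 heat shock factor, HSP90 cochaperone and prefoldin genes 9 were tested. The HSP90 cochaperone Fkbp4 was 1008 ± 50.3 CPM against 234 ± 10.7 CPM in OS at 12 h (log2 fold change 2.10, SE 0.11, adjusted p = 6.77e-16), and 3 genes of the list rose in OS at 3 h, 2 in AD and 3 in CH at the same time (background 18.4%, 18.8% and 18.0%). At 12 h 3 rose in OS, 1 in AD and 2 in CH (background 21.8%, 13.7% and 14.4%), and 4 fell in OS from 12 h to 72 h (background 23.2%). Bag3, the partner of Hspb8, was 27.5 ± 8.64 CPM against 5.69 ± 1.83 CPM in CH at 72 h (log2 fold change 2.08, SE 0.29, adjusted p = 1.04e-06), where Hspb8 itself made no call.

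The remaining tested members made no call against 0 h. Dnajc10, an ER reductase with a J domain, ranged from 531 to 1291 CPM, with log2 differences from -0.61 to 0.52. Sec61g ranged from 24.6 to 196 CPM (-0.92 to 0.83), and Sec63, the partner of Sec62, from 17.7 to 47.1 CPM (-0.75 to 0.16). Dnajc16 ranged from 5.39 to 14.1 CPM, while Creld2, Hspd1, Ssr1, Dnaja3, Dnajc5 and Dnajc13 had medians under 1 CPM and at most 3.04 CPM (Creld2).

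24 members did not pass the filter of at least 1 CPM in at least 3 samples and reached at most 8 reads in any library. They were Atf6, Cct6b, Cct8l1, Dnajb3, Dnajb9, Dnajb13, Dnajc4, Dnajc5b, Dnajc5g, Dnajc8, Dnajc15, Hsp90ab1, Hsp90b1, Hspa12a, Hspa14, Hspb2, Hspb3, Hspb9, Hspb11, Kdelr1, Sec1, Sec14l1, Sec14l5 and Ssr4. Some of these, such as Hsp90ab1, Hsp90b1 and Kdelr1, encode proteins of nearly every cell, so their low listed values were not read as a lack of expression.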

How the data were processed

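RNA was sequenced from 30 samples of rat BMSCs in 10 groups of 3, named as in the labels. The authors trimmed reads with Trimmomatic, aligned them with HISAT2 and quantified genes with StringTie, and the genome build is not given in the sources used here. The deposited values are named FPKM, but in every sample 100% of the values are whole multiples of 1 step (tolerance 0.05), so they are CPM and the reads could be recovered. Tests planned for FPKM were therefore run on CPM. The labels name an rRNA depletion kit and the study's methods an mRNA kit. 729 gene names stood on more than 1 line and were summed, among them Sec31a, Dnajb9 and Dnajc27. 74 of the 76 members matched a RefSeq symbol. 38.9% to 71.4% of each library lies in the listed genes, and the rest was not analysed here.

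Genes that reached 1 CPM in 3 or more samples were fitted with limma 3.58.1 (R 4.3.3) on log2(CPM + 1), with a mean-variance trend, in 1 model of all 10 groups without covariates. Fold changes on this scale are too small for genes of low CPM. P-values were adjusted by Benjamini-Hochberg over all 4363 tested genes. The 21 comparisons were each time against 0 h, 72 h against 12 h, and each pair of lineages at each time. Values are samples 1, 2 and 3 or mean ± SD, n = 3. Each sample combined 3 cultures, per the study's methods. The study calls its replicates independent experiments, and whether they came from separate rats is not given in the sources used here, so p-values measure the spread between these samples. All 30 pairs of replicates differed by more than counting noise. Quantile normalization, median-ratio scaling, edgeR 4.0.16 on the recovered reads, pseudocount 0.1, no filter, a fit of the 6 samples compared, a replicate block, leaving out each sample and adjusted p alone were tried, and genes with a mean of at least 10 CPM were added after seeing the data. The scripts were tested on simulated data. Tables were made with pandas 2.3.3 and numpy 2.4.6 under Python 3.11.15, and figures with matplotlib 3.10.9.

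Members, roles and related gene lists were chosen with earlier results of these data known. Named were members called against 0 h, the 4 members of each role with the highest mean, the 3 largest rises and 3 largest falls of each comparison with 0 h, and members the rule gives by full name. Of the related lists the 2 largest rises and falls were named, and further genes were named after their values were seen. Promoter sequences came from RefSeq on GRCr8.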

Additional observations from a re-analysis of the deposited data

Results flagged for a closer look

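Between lineages at the same time, 42 differences in members passed the test of the difference itself (limma, adjusted p under 0.05 with a log2 difference of 1 or more in either direction), which is why they are given here. As shares of the 52 tested members these were 1.92% in each pair at 3 h, 5.77% to 11.5% at 12 h and 7.69% to 26.9% at 72 h, below the share of all tested genes in 8 of the 9 comparisons and near it in CH against AD at 72 h (26.9%, beside 25.5%). The first lineage named minus the second gives the sign, the values are on the log2(CPM + 1) scale with 3 samples per group, and no explanation was tested. At 3 h Calr differed by -1.38 between OS and AD, Hspb8 by 1.31 between OS and CH, and Hspb7 by 1.42 between CH and AD.

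Between OS and AD at 12 h the differences were -1.27 in Sec31a, 1.23 in Hspa5 and 2.74 in Hspb7. Between OS and CH at 12 h they were -1.65 in Sec23a, -1.37 in Sec24d, -1.22 in Kdelr2, -1.2 in Sec31a, -1.06 in Pdia5 and 1.55 in Dnajc9. CH minus AD at 12 h was 1.07 in Pdia5, 1.15 in Sec61a1, 1.28 in Sec24d, 1.63 in Hspa5, 1.65 in Kdelr2 and 2.42 in Hspb7. Sec24d, Kdelr2 and Pdia5 were thus higher in CH than in both other lineages, of which Kdelr2 and Pdia5 turned on single libraries. Without AD 12 h sample 1 the Hspb7 differences were 3.61 between OS and AD and 3.28 between CH and AD.

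Between OS and AD at 72 h the differences were -1.60 in Sec14l4, 1.02 in Sec11c, 1.31 in Pdia5 and 3.28 in Hspb7. Between OS and CH at 72 h they were -1.81 in Hspa4l, -1.45 in Atf4, -1.28 in Sec61b, -1.02 in Dnaja4, 1.02 in Dnajc27 and 1.02 in Hspa5. CH minus AD at 72 h was -1.60 in Sec14l4, 1.08 in Dnaja4, 1.09 in Ssr2, 1.23 in Sec24d, 1.26 in Sec13, 1.35 in Atf4 and 1.39 in Kdelr2. It was 1.43 in Sec61a1, 1.64 in Sec61g, 1.67 in Pdia5, 1.73 in Sec14l2, 1.90 in Hspa4l, 2.19 in Sec61b and 2.74 in Hspb7. Sec14l4 lay at or under 3 reads in the OS and CH libraries, so its fitted value is no bound.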

How the results depend on the processing

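With quantile normalization the count was 3 in place of 10 (OS 3 h against 0 h), 2 in place of 5 (AD 3 h), 3 in place of 6 (CH 3 h), 5 in place of 10 (OS 72 h against 12 h), 5 in place of 13 (AD), 7 in place of 12 (CH), 2 in place of 1 (OS against CH at 3 h) and 9 in place of 14 (CH against AD at 72 h). With median-ratio scaling it was 1 in AD 3 h, 2 in CH 3 h and 5 in AD 72 h against 12 h. With edgeR on the recovered reads it was 2 in AD 3 h, 4 in place of 2 in AD 12 h, 3 in CH 3 h and 7 in AD 72 h against 12 h. Over all genes edgeR called 692 (OS 72 h) to 1195 (OS 12 h) of 4363 genes against 0 h. Between lineages it called 398 (OS against AD at 3 h) to 1328 (CH against AD at 72 h). With the 6 samples of the comparison it was 1 in AD 12 h and 2 in OS against CH at 3 h. Among genes with a mean of at least 10 CPM, chosen after seeing the data, it was 1 in OS 72 h, 1 in AD 12 h, 2 in AD 72 h, 0 in OS against AD at 3 h, 2 in OS against CH at 3 h, 3 in OS against CH at 12 h and 2 in OS against AD at 72 h. With adjusted p alone the counts against 0 h were 29, 27 and 7 in OS, 28, 21 and 27 in AD and 28, 24 and 20 in CH at 3 h, 12 h and 72 h. From 12 h to 72 h they were 27, 28 and 23 in OS, AD and CH. For the 3 pairs of lineages (OS against AD, OS against CH, CH against AD) they were 7, 6 and 4 at 3 h. The same pairs had 20, 20 and 18 at 12 h and then 29, 20 and 31 at 72 h. The cause of these changes was not tested, beyond the median shift over all genes that median-ratio scaling makes.

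Leaving out each sample in turn gave 8 to 14 calls (OS 3 h), 10 to 12 (OS 12 h), 2 to 2 (OS 72 h), 6 to 9 (AD 3 h), 1 to 5 (AD 12 h), 4 to 9 (AD 72 h), 5 to 9 (CH 3 h), 11 to 13 (CH 12 h) and 2 to 4 (CH 72 h). For 72 h against 12 h it gave 9 to 11 (OS), 8 to 17 (AD) and 10 to 13 (CH). For lineages it gave 1 to 1, 1 to 1 and 1 to 2 at 3 h (OS against AD, OS against CH, CH against AD), 3 to 5, 4 to 6 and 5 to 9 at 12 h, and 4 to 8, 4 to 7 and 12 to 15 at 72 h. The AD 3 h count was 9 without AD 3 h sample 1 or 0 h sample 3. The AD 12 h count was 5 without AD 12 h sample 1 and 1 without AD 12 h sample 3. The AD 72 h against 12 h count was 8 without AD 72 h sample 3, CH against AD at 3 h was 2 without CH 3 h sample 2, OS against AD at 12 h was 5 without AD 12 h sample 1, and OS against AD at 72 h was 8 without AD 72 h sample 2.

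The direction reversed under quantile normalization for Pdia6 in OS 3 h (-0.05), Pdia3 in OS 12 h (-0.12, and -0.02 with edgeR), Cct7 (0.10), Cct8 (0.12) and Sec11a (0.02) in AD 72 h, Sec11a in CH 3 h (-0.07, 0.00 with median ratios and -0.03 with edgeR) and Pdia6 in CH 12 h (-0.01), none of them called. Of 455 single-gene values 135 were calls, of which 56 were lost with quantile normalization, 45 with median ratios, 39 with edgeR and 7 with the 6 samples of the comparison. Quantile normalization added 5 calls, median ratios 3 and edgeR 8. A pseudocount of 0.1 lost 1 and added 3. Leaving out 1 sample lost the call of 34 single-gene values, whose sizes were 1.02 to 1.27, and added one for 26, whose sizes were 0.21 to 1.0.

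Replicate numbers did not pair the samples: over 135 pairs of samples with the same number the median correlation of deviations from the group means was -0.00854, and 3 of 30 samples correlated best with their own number. With the replicate number as a block the count in OS against CH at 3 h was 2 in place of 1, and no other count or single-gene call changed.

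Depth limits the members under about 3 reads, 0.332 to 0.769 CPM, and genes of nearly every cell listed near 0 limit what a low value can mean.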
